A study of Rattus norvegicus with 24 samples.

Results

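The genes described here are the cytokines, chemokines and their receptors of the rat mesenteric arteries, together with tumour necrosis factor (TNF) superfamily genes and TNF-induced proteins. They were taken as all array probes with 1 gene symbol that begins with Il and a digit, Ccl, Ccr, Cxcl, Cxcr, Tnf, or Csf and a digit, with Il4r, Ccr7, Ccl11 and Cxcl12 left out. The rule used no measured values and gave 76 probes for 63 genes, of 10399 probes on the array, 7294 of which carry 1 symbol (6455 genes). The test needed values from 3 or more animals per group, which 75 of the 76 probes had, for 62 genes. The exception was the probe of Cxcl16, a membrane-bound chemokine, which had a value in 3 estradiol benzoate animals, 2 testosterone animals and 4 vehicle animals.

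Expression was measured in mesenteric arteries, the vessels that supply the gut and contribute to vascular resistance, from 12 female Sprague Dawley rats aged 5.5 weeks. Every rat, the controls included, had been ovariectomised at 3 weeks of age and given 2 weeks of recovery, so all groups lack ovarian hormones of their own. The rats were then injected intraperitoneally for 4 days with estradiol benzoate (an estradiol ester, 0.15 mg/kg/day), testosterone (an androgen that tissues can convert to estradiol, 1 mg/kg/day) or the sesame oil vehicle, with 4 animals per group. Each animal's cRNA went onto 2 one-colour CodeLink oligonucleotide arrays, labelled AA and AB, and the mean of their log2 intensities is the level of that animal. Levels are listed in the order of the animal numbers, which are 2, 3, 5 and 8 for estradiol benzoate, 2, 4, 6 and 8 for testosterone and 3, 4, 5 and 8 for vehicle. The groups ask whether either hormone alters arterial gene expression when the ovaries are absent. Both hormone groups are set against the same 4 vehicle animals, so their differences from vehicle share those samples.

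Cytokines are secreted signalling proteins of immune and tissue cells, and chemokines are the cytokines that guide the movement of white blood cells. In a vessel wall, endothelial cells, smooth muscle cells, fibroblasts and resident macrophages make them, and the surrounding fat and any attached white blood cells contribute as well. Interleukin and colony-stimulating factor receptors mostly signal through the JAK and STAT proteins, receptors of the IL-1 and TNF families through NF-kB, and chemokine receptors through heterotrimeric G proteins. Arteries were dissected whole, so fewer cells of a type and less RNA per cell cannot be told apart in these values.

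Promoters are shown for the member with the smallest p in each hormone's comparison with vehicle, Ccr3 and Tnfsf13, and for Cxcl10, whose window, like that of Il15, held matches to 4 of the 5 motifs searched. The sequences are RefSeq promoters of build GRCr8, each a window of 300 bases given for the gene, printed 5′ to 3′ on the gene's strand. The windows of Cxcl10 and Tnfsf13 hold the outer 5′ end of the gene, while that of Ccr3 begins 36466 bases inside the gene as RefSeq annotates it. Capitals mark matches, on either strand, to letters of the NF-kB site (GGGANNTTC), the interferon response element (GAAANNGAA), the AP-1 site (TGANTCA), the estrogen response core (GGTCA) and the androgen response core (AGAACA).
Ccr3, chr8:132499999-132500298 (+): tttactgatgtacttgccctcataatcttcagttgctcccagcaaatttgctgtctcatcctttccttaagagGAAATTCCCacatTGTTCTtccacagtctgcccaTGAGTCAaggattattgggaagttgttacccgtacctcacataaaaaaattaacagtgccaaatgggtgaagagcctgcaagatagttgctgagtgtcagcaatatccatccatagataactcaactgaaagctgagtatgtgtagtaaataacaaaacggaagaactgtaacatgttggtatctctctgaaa
Cxcl10, chr14:15988816-15989115 (+): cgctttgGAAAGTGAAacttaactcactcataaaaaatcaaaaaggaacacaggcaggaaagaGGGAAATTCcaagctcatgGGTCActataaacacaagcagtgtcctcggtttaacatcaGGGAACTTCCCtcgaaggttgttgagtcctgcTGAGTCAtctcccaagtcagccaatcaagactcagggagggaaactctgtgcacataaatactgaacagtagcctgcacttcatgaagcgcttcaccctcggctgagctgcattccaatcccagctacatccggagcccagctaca
Tnfsf13, chr10:54901766-54902065 (-): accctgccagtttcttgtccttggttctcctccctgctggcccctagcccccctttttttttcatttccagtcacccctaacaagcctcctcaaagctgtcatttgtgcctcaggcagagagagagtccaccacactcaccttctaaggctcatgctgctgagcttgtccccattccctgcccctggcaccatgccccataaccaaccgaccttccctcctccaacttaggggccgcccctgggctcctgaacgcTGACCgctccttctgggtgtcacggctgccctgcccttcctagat
The Ccr3 window held an NF-kB match at base 74, an AGAACA match at base 87 and an AP-1 match at base 108, the first 2 of them read on the opposite strand. The Cxcl10 window held an interferon response match at base 8, NF-kB matches at bases 64, 123 and 125, a GGTCA at base 83 and an AP-1 match at base 155. The NF-kB matches at bases 123 and 125 overlap, 1 on each strand. The Tnfsf13 window held a single match, a GGTCA read on the opposite strand at base 256.

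A promoter was given for 53 of the 63 genes, and 12 of the 53 windows lie inside the annotated gene as that of Ccr3 does. The NF-kB letters were present in 7 of these (13.2%) and in 4.05% of all 33469 promoters of the same length, and the 7 were Ccr3, Cxcl1, Cxcl10, Cxcl11, Cxcl9, Il6 and Tnfaip8. TGANTCA was present in 10 members (18.9%) and in 7.33% of all promoters. GAAANNGAA was present in 6 members (11.3%) and in 9.71% of all promoters. The estrogen response core GGTCA was present in 20 members (37.7%) and in 40.5% of all promoters, and AGAACA in 9 members (17.0%) and in 20.7%. The motif letters were settled after matches in these promoters had been seen. These are matches of letters, and no binding was measured.

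Depth on arrays is a matter of signal. The 24 array medians lay between 0.926 and 0.951, between 152 and 665 spots per array had no value, and duplicate arrays correlated at 0.976 to 0.993 across probes. Most members were dim: 31 of the 75 tested probes lay below the 25th percentile of signal over all tested probes, 22 above the 50th and 9 above the 75th, with a range from 0.948 to 96.0. The median SD between duplicate arrays was 0.152 on the log2 scale for the members and 0.119 for all probes. Between animals of a group it was 0.246 for the members and 0.195 for all probes. Duplicate arrays differed by an SD above 0.5 for 8 member probes, which belonged to Ccl20, Csf2, Cxcr1, Il1a, Il2ra, Il9r and Tnfaip6. Adding a pseudocount of 0.1 before the log lowers the differences of such dim probes by construction, to 0.36 for Ccr3 in estradiol benzoate against vehicle and to -0.19 for Ccl20 in testosterone against vehicle, whose values without it are given below.

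**Figure D1:**
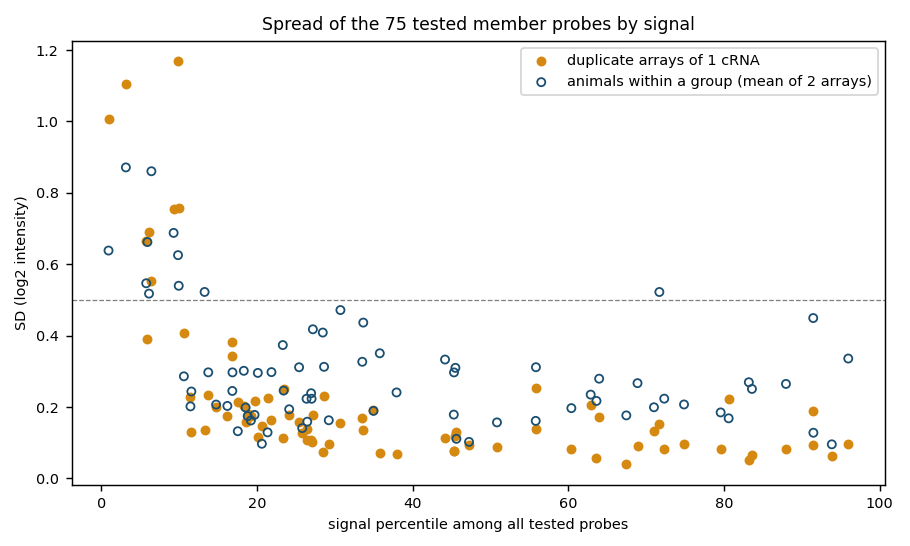
Spread of the 75 tested member probes (vertical axis, SD of log2 intensity) against their signal percentile among all tested probes (horizontal axis). Filled points are the SD between duplicate arrays of 1 cRNA, open circles the SD between animals of a group, and the dashed line is 0.5. The 8 probes with a duplicate SD above 0.5 all lie at the dim end.

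No member passed the test in any comparison. At an adjusted p under 0.05 over the 10228 tested probes (limma), 0 of the 75 member probes were called for estradiol benzoate against vehicle, beside 0% of all probes. The same held for testosterone against vehicle (0 members, 0.0489% of all probes), for estradiol benzoate against testosterone (0 members, 0.0293%) and for any difference among the 3 groups (0 members, 0.00978%). The smallest adjusted p of a member was 0.130 for Ccr3, a chemokine receptor of eosinophils, in estradiol benzoate against vehicle, and 0.138 for Tnfsf13, a B cell survival ligand, in testosterone against vehicle. In estradiol benzoate against testosterone it was 0.729, again for Tnfsf13, and over the 3 groups it was 0.181.

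Counts at an unadjusted p under 0.05 are given beside those of the whole array. In estradiol benzoate against vehicle 12 members (16.0%) were below it, beside 13.5% of all probes, with 9 members higher (12.0%, beside 6.77% of all probes) and 3 lower (4.00%, beside 6.69%). In testosterone against vehicle 14 members (18.7%) were below it, beside 14.0%, with 9 higher (12.0%, beside 6.62%) and 5 lower (6.67%, beside 7.43%). In estradiol benzoate against testosterone there were 3 members (4.00%), beside 4.13%, with 2 higher (2.67%, beside 2.41%) and 1 lower (1.33%, beside 1.71%). Over the 3 groups 12 members (16.0%) were below it, beside 11.9% of all probes. The share of members that were higher against vehicle was above that of all probes under both hormones, which share their vehicle animals, and this gap was not tested. Without the probes below the 25th percentile of signal, 5 of 44 tested members were below 0.05 for estradiol benzoate against vehicle, beside 14.2% of the remaining probes, and 6 of 44 for testosterone, beside 13.7%.

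Groups that did not overlap at all were few. All 4 estradiol benzoate animals lay above all 4 vehicle animals for 3 members (3.53% of all probes) and below them for 1 (4.29%). All 4 testosterone animals lay above all vehicle animals for 3 members (2.45%) and below them for 3 (3.14%). Estradiol benzoate animals all lay above the testosterone animals for 2 members (1.88%) and below them for 1 (1.17%). Differences above 0 were found for 44 members (58.7%) in estradiol benzoate against vehicle, beside 47.6% of all probes, for 43 (57.3%) in testosterone against vehicle, beside 47.7%, and for 42 (56.0%) in estradiol benzoate against testosterone, beside 48.5%. The median difference of the members was 0.074, 0.079 and 0.017 on the log2 scale in these 3 comparisons, beside -0.012, -0.013 and -0.0045 for all probes.

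**Figure D2:**
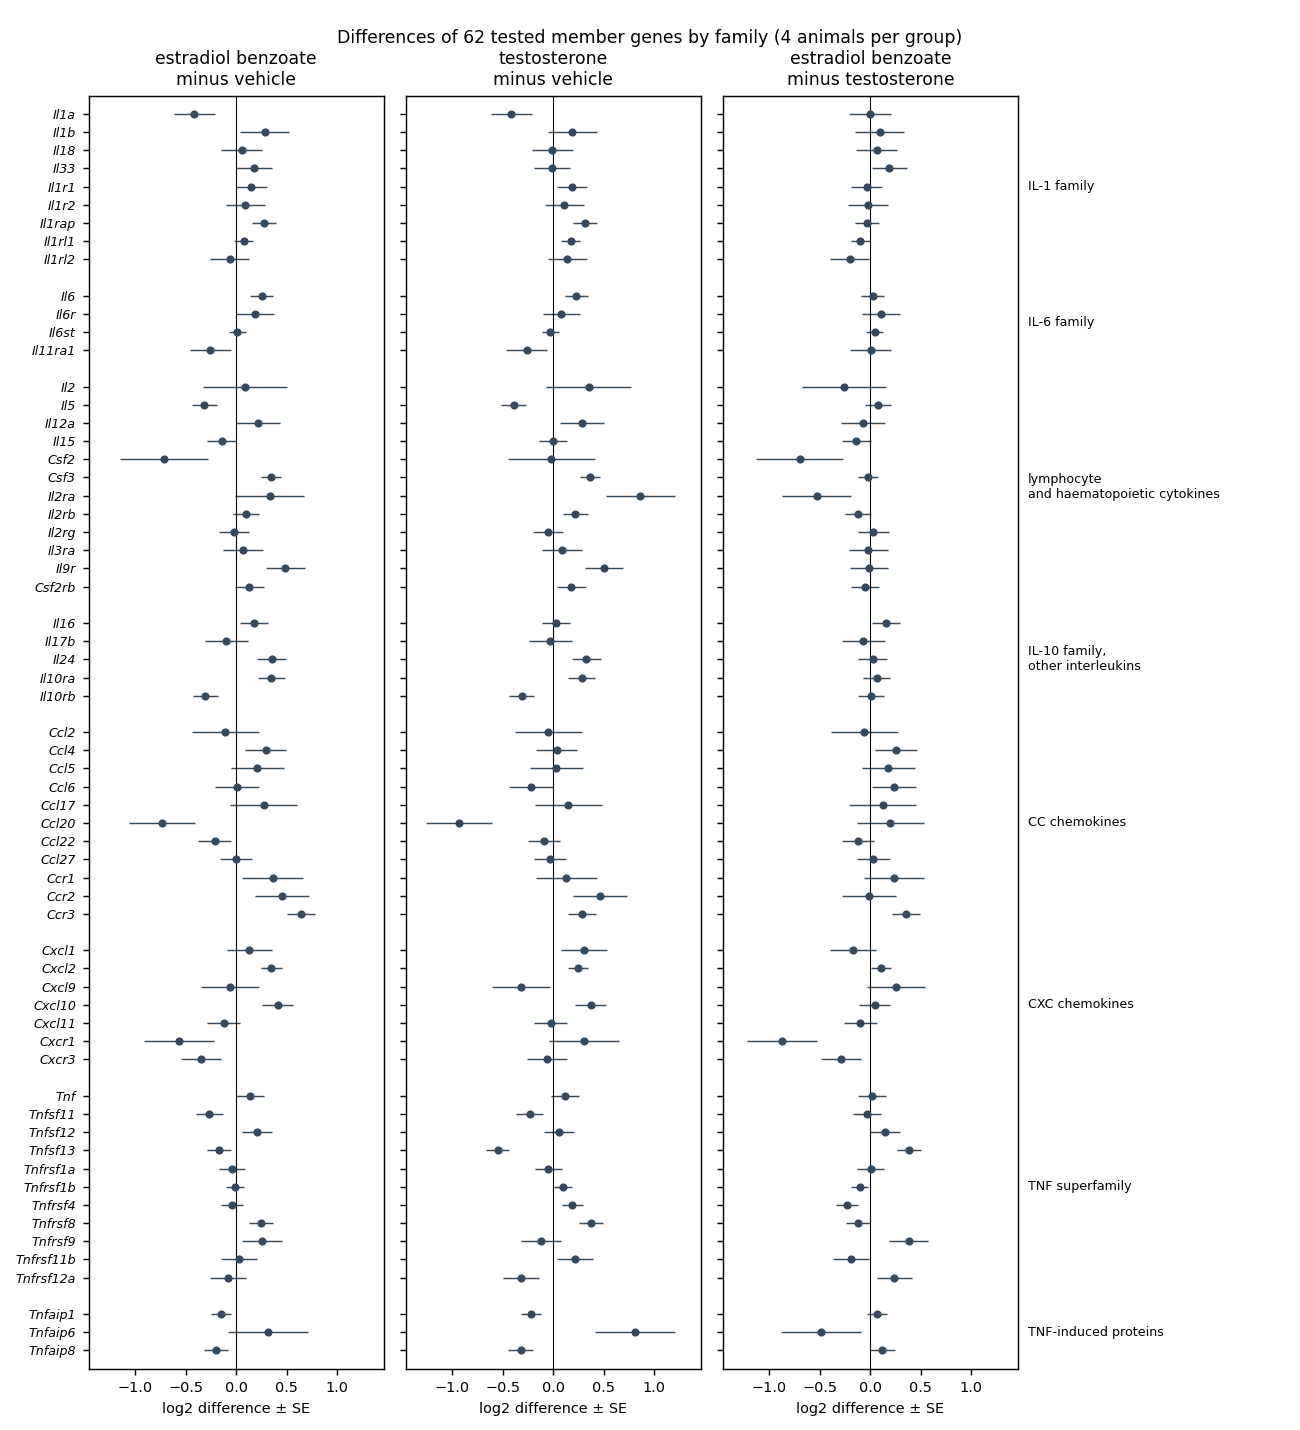
Log2 differences of the 62 tested member genes, each by its brightest probe, in the 3 comparisons (horizontal axes, mean ± SE from the fit to 4 animals per group), ordered by family and by ligand then receptor. In both comparisons with vehicle the points of every family lie on both sides of 0, and in estradiol benzoate minus testosterone all 4 IL-6 family genes lie above it, and the widest errors belong to dim genes such as Csf2, Il2 and Tnfaip6.

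Single members with the smallest p are described first, from chemokine receptors and chemokines to interleukin receptors and TNF ligands. Ccr3, the receptor for eotaxins on eosinophils, had log2 levels of -2.47, -2.80, -2.83 and -2.63 in estradiol benzoate animals, -2.97, -3.40, -2.90 and -2.87 in testosterone animals and -3.58, -3.20, -3.29 and -3.23 in vehicle animals. All estradiol benzoate animals lay above all testosterone animals and above all vehicle animals, and the testosterone and vehicle animals overlapped. Against vehicle, estradiol benzoate gave a log2 difference of 0.64 (SE 0.14, adjusted p = 0.130), a 1.56-fold ratio, and testosterone gave 0.29 (SE 0.14, adjusted p = 0.374), which was 0.14 on AA arrays and 0.58 on AB arrays alone. Estradiol benzoate minus testosterone was 0.36 (SE 0.14, adjusted p = 0.999). With all 24 arrays in the fit and the animal as a random block, the estradiol benzoate difference passed the threshold (adjusted p = 0.0301), the single call among the members in any alternative, beside 2.21% of all probes called in that fit. On AB arrays alone the difference between the hormones was 0.17, and without testosterone animal 4 it was 0.23.

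Its neighbours on the genome, Ccr1 and Ccr2, lie within 1 Mb of the next member. Ccr1, a receptor of Ccl5 on monocytes and neutrophils, had log2 levels of -1.25, -1.08, -1.61 and -1.70 in estradiol benzoate animals, -1.88, -1.85, -1.53 and -1.33 in testosterone animals and -2.74, -1.88, -1.14 and -1.35 in vehicle animals. Its vehicle animals spanned more than those of either hormone group, and all groups overlapped. Ccr2, the Ccl2 receptor of monocytes, had log2 levels of -2.33, -1.40, -1.61 and -1.95 in estradiol benzoate animals, -2.22, -1.37, -1.78 and -1.89 in testosterone animals and -2.88, -2.40, -2.11 and -1.73 in vehicle animals. Vehicle animal 3 was the lowest of the 12 for both receptors. The Ccr1 difference was 0.36 for estradiol benzoate and 0.13 for testosterone against vehicle, and that of Ccr2 was 0.45 and 0.46, with adjusted p between 0.457 and 0.868. All 3 CC chemokine receptors among the members therefore had differences above 0 against vehicle under either hormone, with medians of 0.45 and 0.29, and none was called.

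Among the CXC chemokines, Cxcl2 and Cxcl1 attract neutrophils through Cxcr2. Cxcl2 had log2 levels of -2.94, -2.84, -2.97 and -3.22 in estradiol benzoate animals, -3.01, -3.15, -3.26 and -2.99 in testosterone animals and -3.20, -3.42, -3.36 and -3.40 in vehicle animals. All but 1 of the estradiol benzoate animals, number 8, lay above every vehicle animal. The difference was 0.35 (SE 0.10, adjusted p = 0.226) for estradiol benzoate and 0.25 (SE 0.10, adjusted p = 0.329) for testosterone against vehicle. Cxcl1, its neighbour, had log2 levels of -1.42, -0.73, -0.93 and -1.55 in estradiol benzoate animals, -1.33, -1.02, -1.06 and -0.53 in testosterone animals and -1.40, -1.51, -0.81 and -1.45 in vehicle animals. Vehicle animal 5 stood above the other vehicle animals, and the groups overlapped, with differences of 0.13 and 0.30 (adjusted p = 0.818 and 0.565).

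Cxcl9, Cxcl10 and Cxcl11 are interferon-induced ligands of Cxcr3, a receptor of activated T cells, and lie next to each other on the genome. Cxcl10 had log2 levels of -1.80, -1.76, -1.63 and -2.16 in estradiol benzoate animals, -2.12, -1.59, -2.02 and -1.80 in testosterone animals and -2.43, -2.41, -2.18 and -1.98 in vehicle animals. Most hormone-treated animals lay above most vehicle animals, with overlap in both comparisons. Its differences against vehicle were 0.41 (SE 0.15, adjusted p = 0.306) for estradiol benzoate and 0.37 (SE 0.15, adjusted p = 0.324) for testosterone. Cxcl9, whose probe was bright (signal percentile 91.5), had log2 levels of 2.96, 3.17, 2.92 and 2.64 in estradiol benzoate animals, 2.27, 2.61, 2.45 and 3.33 in testosterone animals and 3.26, 2.53, 3.68 and 2.47 in vehicle animals. Vehicle animals 3 and 5 and testosterone animal 8 were high, and the differences were -0.063 and -0.32 (adjusted p = 0.938 and 0.631). Cxcl11 lay between -2.70 and -1.92, with differences of -0.12 and -0.025. The 3 ligands did not share a sign, and of them only Cxcl10 was at an unadjusted p under 0.05 against vehicle.

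Cxcr3 itself had log2 levels of -3.45, -3.29, -3.22 and -3.04 in estradiol benzoate animals, -3.09, -2.60, -3.13 and -3.04 in testosterone animals and -2.40, -2.81, -3.43 and -2.98 in vehicle animals. Its differences were -0.35 for estradiol benzoate and -0.063 for testosterone against vehicle (adjusted p = 0.446 and 0.903). Cxcr1, a neutrophil chemokine receptor, was among the dimmest members (percentile 5.79) and had log2 levels of -7.19, -5.95, -5.94 and -6.35 in estradiol benzoate animals, -5.61, -5.45, -5.41 and -5.46 in testosterone animals and -5.22, -6.73, -6.03 and -5.18 in vehicle animals. All estradiol benzoate animals lay below all testosterone animals, while vehicle animals spanned both. Estradiol benzoate minus testosterone was -0.87 (SE 0.35, adjusted p = 0.999). It was -0.41 on AA arrays alone and -1.34 on AB arrays alone, and its duplicate arrays differed by an SD of 0.66. Cxcl16, which was not tested, stood in linear intensity at 2.43, 3.29 and 2.37 in estradiol benzoate animals, at 2.03 and 2.36 in testosterone animals and at 3.5, 2.98, 2.64 and 1.94 in vehicle animals.

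CC chemokine ligands showed no common direction. Of the 8 among the members, 4 had differences above 0 for estradiol benzoate against vehicle and 3 for testosterone, with medians of 0.0063 and -0.041. Ccl6, a macrophage chemokine known from rodents, was the brightest member (percentile 96) and had log2 levels of 3.78, 3.74, 3.29 and 3.93 in estradiol benzoate animals, 3.19, 3.20, 3.66 and 3.76 in testosterone animals and 3.22, 3.69, 4.22 and 3.56 in vehicle animals. Vehicle animal 5 was the highest and the groups overlapped, with differences of 0.013 and -0.22 (adjusted p = 0.985 and 0.672). Ccl2, the main monocyte attractant, had log2 levels of 1.05, 1.89, 1.75 and 0.043 in estradiol benzoate animals, 0.80, 1.50, 1.30 and 1.36 in testosterone animals and 1.42, 1.28, 1.20 and 1.27 in vehicle animals. Estradiol benzoate animals held both the 2 highest values and the lowest, and the differences were -0.11 and -0.050.

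Ccl4 and Ccl5, which attract T cells and monocytes, lie near Ccl6. Ccl4 had log2 levels of -2.07, -1.88, -2.14 and -1.82 in estradiol benzoate animals, -2.63, -2.35, -2.24 and -1.71 in testosterone animals and -2.02, -2.37, -1.97 and -2.71 in vehicle animals. Ccl5 had log2 levels of -2.52, -0.99, -1.64 and -1.69 in estradiol benzoate animals, -2.28, -1.77, -1.60 and -1.92 in testosterone animals and -2.15, -1.87, -1.84 and -1.83 in vehicle animals. In both the estradiol benzoate and vehicle animals overlapped, and estradiol benzoate animal 3 held the highest Ccl5 value. Their differences for estradiol benzoate were 0.29 and 0.21, and for testosterone 0.036 and 0.031, with adjusted p of 0.531 or more. Ccl17 and Ccl22, neighbouring ligands of Ccr4, lay between -4.75 and -3.06 and between -2.26 and -1.53, with estradiol benzoate differences of 0.27 and -0.21 and testosterone differences of 0.15 and -0.093. Ccl27, known as a chemokine of skin, lay between -1.33 and -0.53, with differences of -0.00034 and -0.032.

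Ccl20, a ligand of Ccr6, had 2 probes that disagreed. The brighter of them had log2 levels of -6.17, -4.86, -6.53 and -6.29 in estradiol benzoate animals, -6.15, -6.51, -6.05 and -5.93 in testosterone animals and -5.46, -5.50, -5.35 and -4.60 in vehicle animals. All testosterone animals lay below all vehicle animals, and 3 of the 4 estradiol benzoate animals did as well. The difference was -0.93 (SE 0.33, adjusted p = 0.285) for testosterone and -0.73 (SE 0.33, adjusted p = 0.361) for estradiol benzoate against vehicle. The other probe had log2 levels of -4.90, -5.21, -6.68 and -6.36 in estradiol benzoate animals, -6.06, -6.84, -8.26 and -5.68 in testosterone animals and -6.87, -5.81, -6.70 and -6.27 in vehicle animals. Here the estradiol benzoate difference was 0.62, above 0, and estradiol benzoate minus testosterone was 0.92 (SE 0.55, adjusted p = 0.999), or 0.41 without testosterone animal 6. Both probes are near the bottom of the array (percentiles 6.15 and 3.18), with duplicate SDs of 0.69 and 1.11.

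Csf3, the granulocyte colony-stimulating factor, was the member whose animals separated from vehicle under both hormones. Its log2 levels were -2.52, -2.40, -2.71 and -2.60 in estradiol benzoate animals, -2.40, -2.50, -2.72 and -2.53 in testosterone animals and -2.92, -2.80, -2.81 and -3.06 in vehicle animals. Every hormone-treated animal lay above every vehicle animal. The difference was 0.34 (SE 0.10, adjusted p = 0.229) for estradiol benzoate and 0.36 (SE 0.10, adjusted p = 0.221) for testosterone against vehicle. The 2 technical arrays did not give the same size: on AA arrays alone the differences were 0.094 and 0.12, and on AB arrays alone 0.57 and 0.60. Csf2, the granulocyte-macrophage factor, had log2 levels of -4.53, -5.31, -4.81 and -6.14 in estradiol benzoate animals, -4.59, -3.79, -5.29 and -4.30 in testosterone animals and -5.06, -3.96, -3.75 and -5.14 in vehicle animals. The groups overlapped, with estradiol benzoate minus testosterone at -0.70 (SE 0.43, adjusted p = 0.999), or -0.38 without estradiol benzoate animal 8 and -0.47 without testosterone animal 4. Csf2rb, a receptor chain that Csf2 shares with other cytokines, lay between -4.51 and -3.84, with differences of 0.13 and 0.18.

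**Figure D3:**
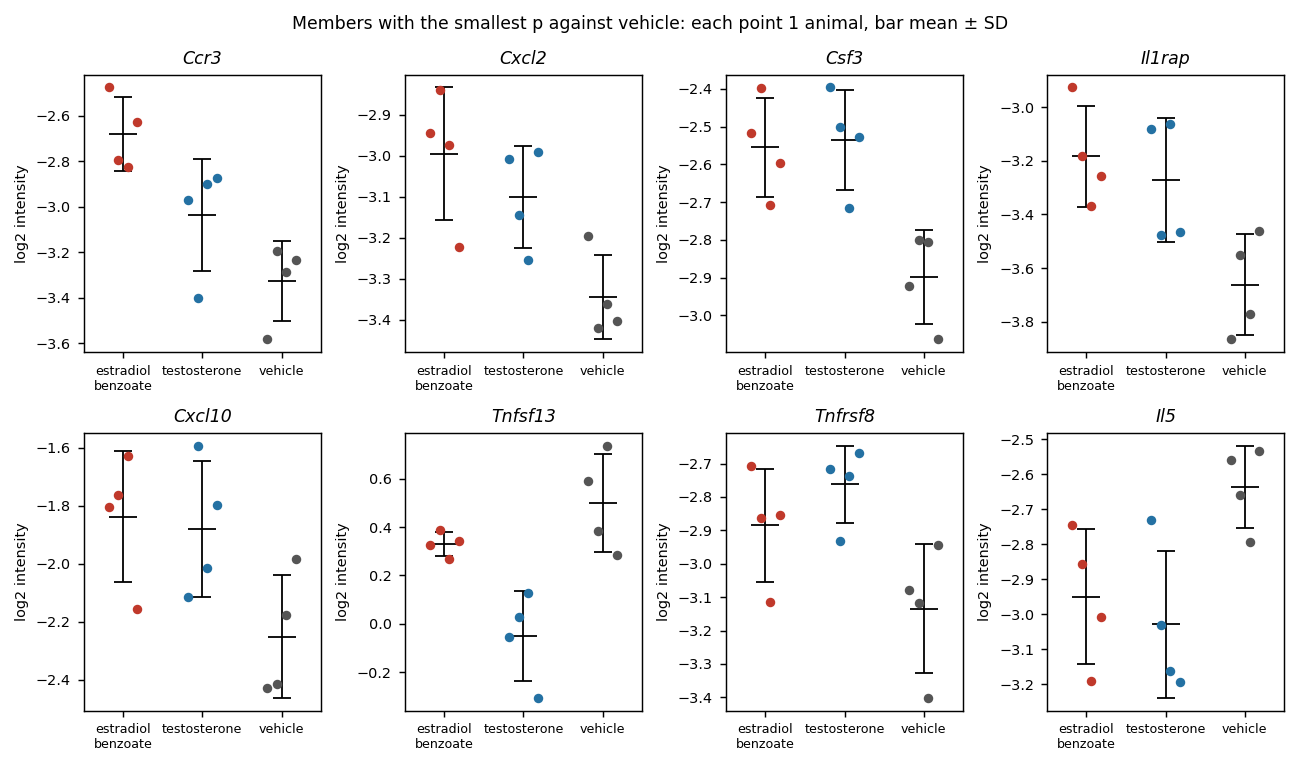
Log2 intensity (vertical axes) of members with the smallest p against vehicle, by group, where each point is 1 animal and the bar is the mean ± SD of 4 animals; Il1rap is shown by the dimmer of its 2 probes. Ccr3, Csf3 and Il1rap show every estradiol benzoate animal above every vehicle animal, and Tnfsf13 every testosterone animal below every vehicle animal.

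Il5, the growth factor of eosinophils, lies near Csf2 and had log2 levels of -2.74, -2.86, -3.19 and -3.01 in estradiol benzoate animals, -2.73, -3.03, -3.16 and -3.19 in testosterone animals and -2.56, -2.66, -2.79 and -2.53 in vehicle animals. Of the testosterone animals, only number 2 lay within the vehicle range, and the estradiol benzoate animals reached into that range with 1 animal. The differences were -0.31 (SE 0.13, adjusted p = 0.327) for estradiol benzoate and -0.39 (SE 0.13, adjusted p = 0.262) for testosterone against vehicle. Il9r, a receptor of T cells and mast cells, had 2 probes with opposite signs. The brighter probe had log2 levels of -4.30, -4.05, -4.35 and -4.22 in estradiol benzoate animals, -4.12, -4.72, -3.97 and -4.04 in testosterone animals and -5.00, -4.33, -4.55 and -5.00 in vehicle animals. Its differences were 0.49 (SE 0.19, adjusted p = 0.311) and 0.51 (SE 0.19, adjusted p = 0.302) against vehicle, but on AB arrays alone 0.085 and 0.032. The other Il9r probe, with the lowest signal of all members (percentile 0.948), gave -0.77 and -0.46.

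Il15, which sustains natural killer and memory T cells, had log2 levels of 1.29, 1.22, 1.28 and 1.61 in estradiol benzoate animals, 1.31, 1.45, 1.33 and 1.87 in testosterone animals and 1.57, 1.26, 1.47 and 1.67 in vehicle animals. Its groups overlapped, with differences of -0.14 and -0.0019 against vehicle. The receptor chains it shares with Il2 lay between -0.79 and -0.0021 for Il2rb and between 0.89 and 1.59 for Il2rg, with differences from -0.051 to 0.22 in either comparison with vehicle. Il2ra, the chain particular to Il2 binding, had one of the larger testosterone differences, 0.86 (SE 0.34, adjusted p = 0.318), with testosterone animals between -5.05 and -3.41 and vehicle animals between -5.49 and -4.35, at a duplicate SD of 0.76. Il2 itself lay between -7.06 and -4.95, Il3ra between -4.24 and -3.22 and Il12a, a subunit that pairs in the Th1-promoting cytokine, between -1.13 and 0.11. The differences of these 3 genes against vehicle ranged from 0.069 to 0.35, and none was at an unadjusted p under 0.05.

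For Il10ra, the ligand-binding chain of the receptor for the anti-inflammatory cytokine Il10, log2 levels were -0.98, -0.96, -1.27 and -1.11 in estradiol benzoate animals, -0.89, -1.38, -1.18 and -1.13 in testosterone animals and -1.35, -1.42, -1.73 and -1.21 in vehicle animals. Estradiol benzoate and vehicle animals overlapped through 2 animals. The difference was 0.35 (SE 0.13, adjusted p = 0.311) for estradiol benzoate, or 0.21 without estradiol benzoate animal 3 and vehicle animal 5, and 0.28 (SE 0.13, adjusted p = 0.369) for testosterone. Il10rb, the partner chain, went the other way: estradiol benzoate animals lay between 0.75 and 0.96, testosterone animals between 0.62 and 1.22 and vehicle animals between 1.07 and 1.36. All estradiol benzoate animals were below all vehicle animals, with a difference of -0.31 (SE 0.13, adjusted p = 0.327), and testosterone gave -0.31 (SE 0.13, adjusted p = 0.321). Il24, a member of the Il10 family, had log2 levels of -3.21, -3.40, -3.68 and -3.46 in estradiol benzoate animals, -3.31, -3.50, -3.61 and -3.42 in testosterone animals and -3.45, -3.74, -4.10 and -3.88 in vehicle animals. It gave 0.35 (SE 0.14, adjusted p = 0.326) and 0.33 (SE 0.14, adjusted p = 0.344) against vehicle. Il16, a T cell attractant, lay between 0.77 and 1.51 and Il17b between -1.81 and -0.89, with differences from -0.098 to 0.18.

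In the IL-1 family the accessory chain Il1rap, needed for signalling by Il1r1 and Il1rl1, was measured by 2 probes of the same direction. The dimmer probe had log2 levels of -2.93, -3.18, -3.37 and -3.26 in estradiol benzoate animals, -3.08, -3.48, -3.06 and -3.46 in testosterone animals and -3.87, -3.55, -3.77 and -3.46 in vehicle animals. All estradiol benzoate animals lay above all vehicle animals. Its differences were 0.48 (SE 0.14, adjusted p = 0.229) for estradiol benzoate and 0.39 (SE 0.14, adjusted p = 0.293) for testosterone against vehicle. The brighter probe had log2 levels of -1.74, -1.60, -1.74 and -1.65 in estradiol benzoate animals, -1.71, -1.63, -1.60 and -1.66 in testosterone animals and -2.35, -1.89, -1.89 and -1.72 in vehicle animals. There all testosterone animals lay above all vehicle animals, with a difference of 0.31 (SE 0.12, adjusted p = 0.306), and estradiol benzoate gave 0.28 (SE 0.12, adjusted p = 0.340). Vehicle animal 3 was the lowest of the 12 on both probes.

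The other IL-1 receptors had small differences. Il1r1, the signalling receptor, had log2 levels of -1.91, -2.12, -2.07 and -2.01 in estradiol benzoate animals, -1.97, -1.88, -1.86 and -2.27 in testosterone animals and -2.49, -1.89, -2.43 and -1.91 in vehicle animals. Vehicle animals 3 and 5 were the lowest of all, and the groups overlapped. Its differences were 0.15 for estradiol benzoate and 0.19 for testosterone against vehicle. Il1r2, the decoy receptor, lay between -3.73 and -2.81, Il1rl2, the receptor of Il36 cytokines, between -3.21 and -2.27, and the brightest of 3 probes of Il1rl1, the Il33 receptor, between -0.58 and -0.12. The genes Il1r2, Il1r1, Il1rl2 and Il1rl1 lie in a row on the genome. Taking the brightest probes, all 5 receptors had differences above 0 for testosterone against vehicle (0.11 to 0.31) and 4 of 5 for estradiol benzoate (-0.065 to 0.28), and none was called.

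Among the IL-1 ligands, Il33, an alarmin kept in the nuclei of endothelial and stromal cells, had 2 bright probes. The brighter had log2 levels of 2.63, 2.63, 2.42 and 2.64 in estradiol benzoate animals, 2.45, 2.68, 2.31 and 2.12 in testosterone animals and 2.07, 2.26, 2.32 and 2.95 in vehicle animals. The dimmer had log2 levels of 2.01, 2.13, 2.09 and 2.36 in estradiol benzoate animals, 1.82, 2.39, 2.12 and 2.15 in testosterone animals and 1.81, 1.64, 1.89 and 2.42 in vehicle animals. Vehicle animal 8 was the highest of the 12 on both, and the vehicle animals spanned most of the hormone-treated animals. The estradiol benzoate differences were 0.18 and 0.20, and the testosterone differences -0.010 and 0.18, with adjusted p of 0.597 or more. Il18, which induces interferon gamma, had log2 levels of -0.52, -0.18, -0.44 and -0.33 in estradiol benzoate animals, -0.88, -0.37, -0.40 and -0.086 in testosterone animals and -0.38, -0.79, 0.12 and -0.65 in vehicle animals. Vehicle animal 5 was the highest and its differences were 0.058 and -0.0070.

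Il1a and Il1b, neighbouring genes for the classical inflammatory cytokines, differed in sign. Il1a had log2 levels of -1.74, -2.29, -1.90 and -1.93 in estradiol benzoate animals, -1.55, -1.72, -2.05 and -2.54 in testosterone animals and -1.42, -1.66, -1.31 and -1.81 in vehicle animals. Most hormone-treated animals lay below most vehicle animals, with overlap. Its differences were -0.41 (SE 0.20, adjusted p = 0.393) for estradiol benzoate and -0.41 (SE 0.20, adjusted p = 0.387) for testosterone, and its second probe, at percentile 6.45, gave -0.25 and -0.46. Il1b had log2 levels of -2.77, -1.92, -2.08 and -2.35 in estradiol benzoate animals, -2.57, -2.43, -2.27 and -2.22 in testosterone animals and -2.86, -2.87, -2.71 and -1.81 in vehicle animals. Vehicle animal 8 stood well above the other vehicle animals. Its differences were 0.28 and 0.19 (adjusted p = 0.610 and 0.752).

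Il6, made by smooth muscle and immune cells in response to Il1b and Tnf, had log2 levels of -1.95, -1.84, -1.86 and -2.20 in estradiol benzoate animals, -1.98, -1.72, -2.09 and -2.16 in testosterone animals and -2.24, -2.16, -2.36 and -2.11 in vehicle animals. In each hormone group, all but animal 8 lay above every vehicle animal, and the hormone groups overlapped each other. The differences were 0.25 (SE 0.12, adjusted p = 0.374) for estradiol benzoate and 0.23 (SE 0.12, adjusted p = 0.398) for testosterone against vehicle. Il6st, the signalling chain shared by the receptors of this family, was bright, with log2 levels of 3.26, 3.30, 3.08 and 3.19 in estradiol benzoate animals, 3.15, 3.27, 3.12 and 3.12 in testosterone animals and 3.25, 3.15, 3.32 and 3.06 in vehicle animals. Its differences were 0.013 and -0.030. A dimmer Il6st probe, with no value for vehicle animal 3, gave -0.021 and -0.45 from the 3 remaining vehicle animals. Il6r, the ligand-binding chain, had log2 levels of 0.50, 0.89, 0.87 and 1.17 in estradiol benzoate animals, 0.38, 0.62, 0.91 and 1.10 in testosterone animals and 0.36, 0.62, 0.91 and 0.80 in vehicle animals. Its 2 probes gave the same estradiol benzoate difference of 0.19, and testosterone differences of 0.079 and 0.094. Il11ra1 lay between -0.14 and 0.91, with differences of -0.26 and -0.26.

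Tnfsf13, known as APRIL, a survival ligand of B and plasma cells, had the smallest p of any member against vehicle under testosterone. Its log2 levels were 0.33, 0.39, 0.27 and 0.34 in estradiol benzoate animals, -0.053, 0.029, 0.13 and -0.31 in testosterone animals and 0.59, 0.38, 0.74 and 0.29 in vehicle animals. Testosterone animals lay below all vehicle animals and below all estradiol benzoate animals, while estradiol benzoate and vehicle animals overlapped. The difference was -0.55 (SE 0.12, adjusted p = 0.138) for testosterone against vehicle, a ratio of 0.683, and -0.17 (SE 0.12, adjusted p = 0.531) for estradiol benzoate. Estradiol benzoate minus testosterone was 0.38 (SE 0.12, adjusted p = 0.729). Over the 25 alternatives the testosterone difference stayed between -0.62 and -0.47, with adjusted p between 0.0811 and 0.364, so it was called in none of them. The Tnfsf13 promoter shown above held no match to the NF-kB, interferon response or AP-1 letters. Tnfsf12, the neighbouring ligand TWEAK, lay between 0.41 and 1.12, with differences of 0.21 and 0.061.

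Tnf, the founding ligand of the family, had log2 levels of 0.63, 0.63, 0.55 and 0.56 in estradiol benzoate animals, 0.83, 0.69, 0.37 and 0.40 in testosterone animals and 0.32, 0.83, 0.27 and 0.40 in vehicle animals. Its groups overlapped, with differences of 0.13 and 0.12, and its dimmer probe gave -0.043 and -0.15, so the probes differed in sign. Tnfsf11, known as RANKL, had log2 levels of -2.20, -2.34, -2.58 and -2.53 in estradiol benzoate animals, -2.34, -2.07, -2.45 and -2.65 in testosterone animals and -2.04, -1.99, -2.30 and -2.24 in vehicle animals. The differences were -0.27 and -0.23 (adjusted p = 0.405 and 0.458). Tnfrsf11b, osteoprotegerin, the soluble decoy of Tnfsf11 that smooth muscle cells secrete, was bright and had log2 levels of 1.87, 2.08, 1.78 and 2.21 in estradiol benzoate animals, 2.28, 2.32, 2.01 and 2.11 in testosterone animals and 1.48, 2.08, 1.86 and 2.42 in vehicle animals. Vehicle animals spanned the widest range, and its differences were 0.026 and 0.22.

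Receptors of Tnf itself had differences near 0 by their brightest probes. Tnfrsf1a, the receptor found on most cells, had log2 levels of 1.71, 1.63, 1.85 and 1.82 in estradiol benzoate animals, 1.65, 1.69, 1.99 and 1.67 in testosterone animals and 2.08, 1.64, 1.94 and 1.53 in vehicle animals. Tnfrsf1b, the receptor of white blood cells and endothelium, had log2 levels of -0.17, -0.41, -0.39 and -0.38 in estradiol benzoate animals, -0.089, -0.19, -0.31 and -0.32 in testosterone animals and -0.33, -0.26, -0.44 and -0.28 in vehicle animals. The groups of both overlapped, and the 4 differences against vehicle ranged from -0.047 to 0.099. A second Tnfrsf1a probe gave 0.22 and 0.12.

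Tnfrsf8, the activation marker CD30 and a neighbour of Tnfrsf1b, had log2 levels of -2.71, -2.86, -3.11 and -2.86 in estradiol benzoate animals, -2.71, -2.93, -2.74 and -2.67 in testosterone animals and -3.08, -3.12, -3.40 and -2.94 in vehicle animals. All testosterone animals lay above all vehicle animals, with animal 4 only just above vehicle animal 8. The difference was 0.37 (SE 0.12, adjusted p = 0.253) for testosterone, or 0.21 on AB arrays alone, and 0.25 (SE 0.12, adjusted p = 0.380) for estradiol benzoate. Tnfrsf4, the T cell costimulator OX40, was measured by 2 probes, of which the brighter had log2 levels of -2.30, -2.13, -2.29 and -2.09 in estradiol benzoate animals, -2.06, -1.93, -2.10 and -1.80 in testosterone animals and -2.19, -1.99, -2.39 and -2.07 in vehicle animals. Its dimmer probe had log2 levels of -3.23, -3.22, -3.07 and -2.94 in estradiol benzoate animals, -2.91, -3.10, -3.02 and -2.57 in testosterone animals and -2.84, -2.98, -3.06 and -2.78 in vehicle animals. Most testosterone animals lay above most estradiol benzoate animals on both, and estradiol benzoate minus testosterone was -0.23 (SE 0.11, adjusted p = 0.999) and -0.21 (SE 0.13, adjusted p = 0.999). Without testosterone animal 8 the dimmer probe gave -0.10.

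Tnfrsf9, a further T cell costimulator, had log2 levels of -0.62, -0.073, 0.022 and -0.16 in estradiol benzoate animals, -0.86, -0.034, -0.70 and -0.76 in testosterone animals and -0.24, -0.45, -0.44 and -0.74 in vehicle animals. Testosterone animal 4 lay among the estradiol benzoate animals and the other 3 lay below all of them, and estradiol benzoate minus testosterone was 0.38 (SE 0.20, adjusted p = 0.999). Tnfrsf12a, the TWEAK receptor of vascular cells, lay between 0.65 and 1.59, with differences of -0.083 for estradiol benzoate and -0.32 for testosterone against vehicle. Over the whole TNF superfamily, 5 of 11 genes had differences above 0 for estradiol benzoate against vehicle and 6 of 11 for testosterone, with medians of -0.0071 and 0.061.

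Of the TNF-induced proteins, Tnfaip8, a regulator of cell survival, had log2 levels of 1.79, 1.65, 1.86 and 1.93 in estradiol benzoate animals, 1.78, 1.83, 1.79 and 1.35 in testosterone animals and 1.89, 1.90, 2.09 and 2.15 in vehicle animals. All testosterone animals lay below all vehicle animals, number 8 by far the lowest. The difference was -0.32 (SE 0.12, adjusted p = 0.304) for testosterone, or -0.21 without testosterone animal 8 and -0.20 on AB arrays alone, and -0.20 (SE 0.12, adjusted p = 0.469) for estradiol benzoate. Tnfaip1, an adaptor of ubiquitin ligases, had log2 levels of 2.77, 2.73, 2.88 and 2.95 in estradiol benzoate animals, 2.65, 2.94, 2.74 and 2.74 in testosterone animals and 3.10, 2.92, 3.12 and 2.79 in vehicle animals. Its differences were -0.15 (SE 0.10, adjusted p = 0.516) and -0.22 (SE 0.10, adjusted p = 0.361). Tnfaip6, a hyaluronan-binding protein, lay between -6.19 and -3.77, with the largest duplicate SD of the members (1.17) and differences of 0.32 and 0.81.

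**Figure D4:**
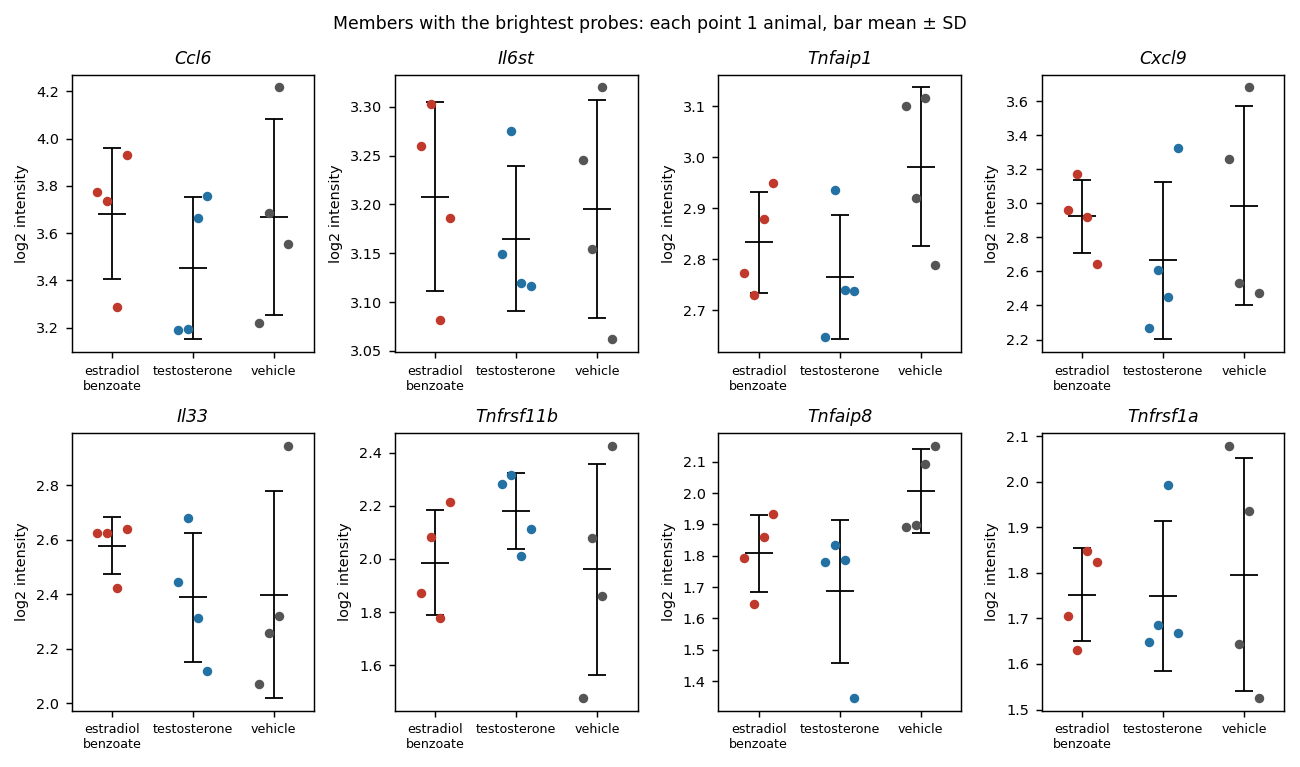
Log2 intensity (vertical axes) of the 8 genes with the brightest member probes, by group, where each point is 1 animal and the bar is the mean ± SD of 4 animals. The groups overlap for each gene except Tnfaip8, where all testosterone animals lie below all vehicle animals.

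By role, the 31 tested ligands and 28 tested receptors among the members gave these counts. Against vehicle, 18 ligands and 18 receptors had differences above 0 for estradiol benzoate, and 15 ligands and 20 receptors for testosterone. The medians were 0.089 for ligands and 0.082 for receptors under estradiol benzoate, and -0.0019 and 0.16 under testosterone. Against vehicle, families split both ways as well. For the 12 lymphocyte and haematopoietic genes 8 differences were above 0 in either comparison, with medians of 0.094 and 0.20, and for the 9 IL-1 family genes 7 and 6 were, with medians of 0.091 and 0.14. None of the families held a called gene.

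By the RefSeq genes of GRCr8, 32 of the 63 genes lie within 1 Mb of another member, in 13 clusters. Some neighbours differed in sign, as Il1a and Il1b, Tnfsf13 and Tnfsf12, and Cxcl10 and Cxcl11 did above. Of the 12 genes with several probes, all probes had the same sign for 6 genes in estradiol benzoate against vehicle, for 7 in testosterone against vehicle and for 8 in estradiol benzoate against testosterone.

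Genes of the pathways of these receptors, none of them members, were counted from lists for each pathway. The lists also hold some ligands and receptors, such as Cntf and Cx3cr1. Of 20 tested genes of JAK and STAT signalling, 13 had differences above 0 and 7 below for estradiol benzoate against vehicle, 11 and 9 for testosterone, and 14 and 6 for estradiol benzoate against testosterone. None was called, and 2, 2 and 1 of them were at an unadjusted p under 0.05. The smallest p belonged to Cish, a STAT5-induced inhibitor of cytokine signalling, with differences of 0.49 for estradiol benzoate (adjusted p = 0.159) and 0.59 for testosterone (adjusted p = 0.116) against vehicle. Tyk2, a kinase of interferon and Il12 receptors, gave -0.28 and -0.37 (adjusted p = 0.342 and 0.264). Socs3, the inhibitor induced by Il6, gave a testosterone difference of -0.19 (adjusted p = 0.375).

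Of 12 genes of NF-kB and TNF receptor signalling, 6 lay above 0 and 6 below in each comparison with vehicle, and none was at an unadjusted p under 0.05. Rela, an NF-kB subunit, gave 0.29 for estradiol benzoate (adjusted p = 0.381) and Birc2, an inhibitor of apoptosis in the TNF receptor complex, -0.26 and -0.21 (adjusted p = 0.415 and 0.509). Of 13 other genes of the chemokine system, 9 were above 0 for estradiol benzoate and 7 for testosterone, with 0 called and 2 and 4 at an unadjusted p under 0.05. Cx3cr1, the fractalkine receptor of monocytes, gave 0.66 (adjusted p = 0.297) for estradiol benzoate, at a level below the 10th percentile of signal, and Cmklr1, the chemerin receptor, 0.53 for testosterone (adjusted p = 0.313).

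Of 18 genes that vascular cells induce in response to cytokines, 8 were above 0 for estradiol benzoate, 6 for testosterone and 12 for estradiol benzoate against testosterone. None was called, and 3, 1 and 3 were at an unadjusted p under 0.05. Zfp36, which destabilises cytokine mRNAs, gave 0.65 for estradiol benzoate against vehicle (adjusted p = 0.282). Vcam1, the adhesion molecule of activated endothelium, gave -0.34 (adjusted p = 0.335) and Cd40, a receptor of the TNF family, 0.25 (adjusted p = 0.335) and, for testosterone, 0.29 (adjusted p = 0.298). Sod2, an antioxidant enzyme that Tnf induces, gave 0.31 for estradiol benzoate against testosterone (adjusted p = 0.999).

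Markers of the cells that could carry these transcripts were measured on the same arrays. Artery markers were present: Pecam1 of endothelium and Cnn1 of smooth muscle lay at percentiles 99.1 and 99.5. Acta2 and Nos3 had no tested probe with 1 symbol here, and the probes of Myh11 and Tagln had too few values. All 13 tested T and NK cell markers had differences above 0 for estradiol benzoate against vehicle (median 0.44) and for testosterone against vehicle (median 0.39), with 0 called and 6 and 4 at an unadjusted p under 0.05. Their summed intensity was 2.54 to 3.17 in estradiol benzoate animals, 2.21 to 3.59 in testosterone animals and 1.36 to 2.25 in vehicle animals, so the estradiol benzoate and vehicle animals did not overlap. Cd4, Cd8a, Gzmb and Gzmk, which define T and NK subsets, lay below the 10th percentile of signal. Of 10 white adipocyte markers, 9 were above 0 in either comparison with vehicle, with medians of 0.36 and 0.34. None was called, and 4 were at an unadjusted p under 0.05 in each. Of all probes, 13.5% (estradiol benzoate) and 14.0% (testosterone) were below that p against vehicle, 6.77% and 6.62% of them with higher values.

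The summed fibroblast and mast cell markers were lower in estradiol benzoate animals than in vehicle animals, with no single marker called. The summed intensity of 5 fibroblast markers was 52.4 to 97.0 in estradiol benzoate animals, 89.7 to 119.0 in testosterone animals and 106.7 to 131.6 in vehicle animals. That of 7 mast cell markers was 7.22 to 8.84 in estradiol benzoate animals, 8.07 to 11.9 in testosterone animals and 9.16 to 11.04 in vehicle animals. Estradiol benzoate and vehicle animals did not overlap in either sum. In mean log2, which weighs each marker equally, the fibroblast markers did not overlap either (2.06 to 3.22 and 3.33 to 3.60). The mast cell markers did (-0.60 to -0.078 and -0.40 to -0.17), with estradiol benzoate animal 3 above every vehicle animal. For estradiol benzoate against vehicle, 4 of the 5 fibroblast markers and 5 of the 7 mast cell markers had differences below 0 (medians -0.28 and -0.26), with 2 and 1 of them at an unadjusted p under 0.05. For testosterone, 3 and 4 were below 0, with medians of -0.042 and -0.012. Endothelial markers split 4 above and 6 below 0 for estradiol benzoate and 5 and 5 for testosterone, and smooth muscle markers 4 and 3, and 2 and 5. The part of T cells, fat, fibroblasts and mast cells in the values of the members was not tested.

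Of 8 macrophage markers, 4 were above 0 and 4 below for estradiol benzoate against vehicle (median -0.0017), and 3 above and 5 below for testosterone (median -0.26). None was called. For testosterone, 3 of those below 0 and 1 above 0 were at an unadjusted p under 0.05, and 1 above 0 for estradiol benzoate. The 3 below 0 were Aif1, C1qa and C1qc, with differences of -0.44, -0.40 and -0.40 and adjusted p of 0.303, 0.304 and 0.344. The 1 above 0 was Clec4f in both comparisons. It gave 0.85 for estradiol benzoate (adjusted p = 0.310) and 0.85 for testosterone (adjusted p = 0.305), at signal percentile 18.2. The summed intensity of the 8 markers was 41.2 to 55.4 in estradiol benzoate animals and 35.7 to 47.7 in testosterone animals. In vehicle animals it was 41.1 to 67.5, highest in animal 5. Of the 75 member probes, that animal was the highest of the 12 for 9, among them Ccl6, Cxcl9 and Il18, and the lowest for 11. Of 4 granulocyte markers the sum was 1.63 to 4.03 in estradiol benzoate animals, highest in animal 3. It was 1.49 to 2.07 in testosterone animals and 1.50 to 2.99 in vehicle animals. Estradiol benzoate animal 3 was the highest of the 12 for 4 member probes, among them Ccl5 and Ccl2, and the lowest for 3. Of the 4 granulocyte markers, 3 were above 0 for estradiol benzoate against vehicle (median 0.30) and 2 for testosterone (median 0.023). None was called, and 2 and 1 were at an unadjusted p under 0.05. Fcnb, a ficolin of neutrophils, had differences of 0.78 for estradiol benzoate (adjusted p = 0.217) and -0.25 for testosterone (adjusted p = 0.630) against vehicle, and 1.03 for estradiol benzoate against testosterone (adjusted p = 0.293). Prg2, a granule protein of eosinophils, had differences of 0.38 for estradiol benzoate (adjusted p = 0.266) and 0.30 for testosterone (adjusted p = 0.324). Lcn2, a neutrophil granule protein, gave -0.0048 and -0.44 (adjusted p = 0.996 and 0.601). For 3 B and plasma cell markers, differences were above 0 in every comparison, with 0 called and 1 at an unadjusted p under 0.05, Blk in estradiol benzoate against vehicle. The part of macrophages and of granulocytes, eosinophils included, in the values of the members was not tested.

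Transcripts of neighbouring organs stood out most in 2 animals. The summed intensity of 9 pancreas acinar markers was 105.8 in estradiol benzoate animal 3 and 0.643 to 5.25 in the other 11 animals. Of 10 hepatocyte markers it was 44.0 in vehicle animal 5 and 1.49 to 7.53 in the others. Without these 2 animals, an alternative chosen after seeing the data, 73 members could be tested and 0 were called, while 7 instead of 12 were at an unadjusted p under 0.05 for estradiol benzoate against vehicle (beside 8.52% of all probes) and 9 instead of 14 for testosterone (beside 11.1%). The Ccr3 difference for estradiol benzoate against vehicle was then 0.70 and the Tnfsf13 difference for testosterone -0.47. With all animals, the 10 hepatocyte markers were all below 0 under both hormones against vehicle. Of these, 4 (estradiol benzoate) and 7 (testosterone) were at an unadjusted p under 0.05. In mean log2, all testosterone animals (-3.51 to -3.21) lay below all vehicle animals (-2.83 to 0.84). All 9 pancreas markers were above 0 for estradiol benzoate, 5 at an unadjusted p under 0.05, and 7 for testosterone. None was called, and their part in the members was not tested.

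**Figure D5:**
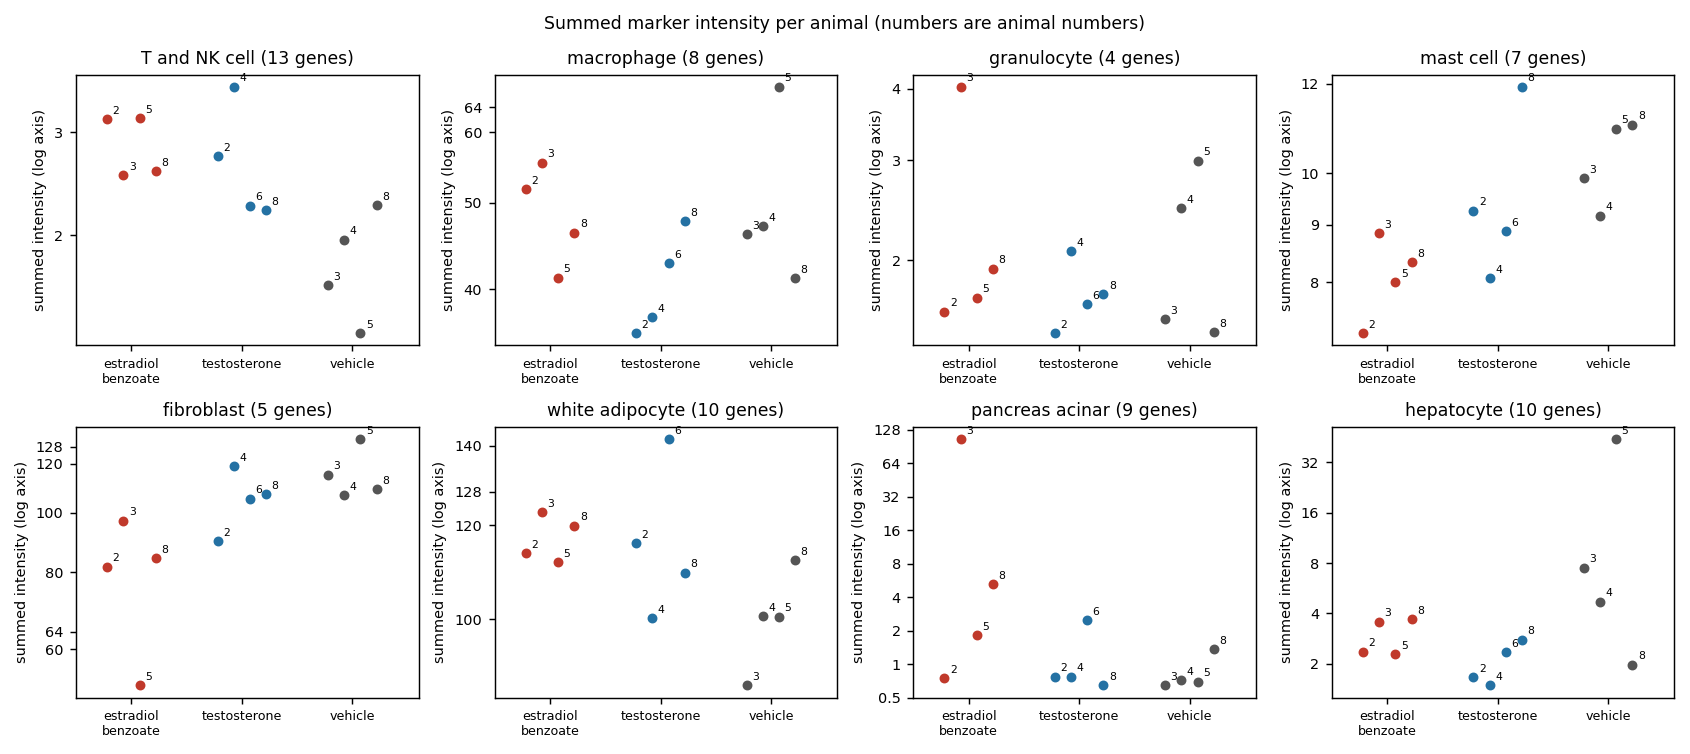
Summed linear intensity of marker genes (vertical axes, log scale) of 8 cell types by group, where each point is 1 animal labelled with its number. The T and NK cell sums of estradiol benzoate animals lie above those of vehicle animals and their mast cell and fibroblast sums below. In mean log2 the mast cell markers overlap. Pancreas markers are highest in estradiol benzoate animal 3 and hepatocyte markers in vehicle animal 5.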

How the data were processed

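Messenger RNA was measured in mesenteric arteries of 12 animals on 24 one-colour arrays. The deposited values are spot intensity on a linear scale, in which every array median lies just below 1. How the spots were scanned, background-corrected, scaled and filtered is not given in the sources used here. Probe names come from GEO's platform annotation, matched by gene ID to RefSeq, which changed 0 member symbols.

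Blank spots and the 327 values at or below 0 were treated as missing. The log2 of the other deposited intensities was taken with no pseudocount or further scaling, and the 2 arrays of an animal, which the labels call technical replicates of 1 cRNA, were averaged. Group means were fitted to 12 animals with limma 3.58.1 in R 4.3.3 (9 residual and 2.51 prior degrees of freedom) for the 10228 probes with values in at least 3 animals per group. Tests were two-sided, p was adjusted by Benjamini-Hochberg over all tested probes, and a call needs an adjusted p under 0.05. For genes with several probes the brightest stands for the gene in counts. The fit was tested on simulated data. The number of animals limits the precision, and values of dim probes are limited by signal over background.

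Members given with every animal's value are the 8 with the smallest p in each comparison, the 10 brightest probes and 26 measured genes of a list of 40 common cytokine genes. A few further members are named with values chosen after they were seen. The members, gene lists and tests were chosen with earlier results of these data known. Alternatives changed the scaling, pseudocount, filters, arrays, variance prior, samples and pairing. Animals with the same number do not share a known litter or day. Of 7 same-number pairs, correlations of their deviations ran from -0.12 to 0.30 with a median of 0.043, and 2 were above 0.1. The 41 pairs of different numbers ran from -0.28 to 0.24 with a median of -0.020, and 5 were above 0.1. Numbers were not treated as pairs because nothing given pairs the animals, and a fit with the number as block is described below.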

Additional observations from a re-analysis of the deposited data

Results flagged for a closer look

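Within the groups of 4 animals, 9 of 224 sets of member levels held an animal whose gap to its nearest neighbour exceeded, relative to the group's range, Dixon's 95% value for 4 samples. Chance gives about 1 in 20, so the number of such gaps is below that share, and each is given as a value. Il33, an alarmin, had its lowest estradiol benzoate level in animal 5, at 2.42, against 2.63 to 2.64 in the other 3 animals. Tnfrsf1b, a Tnf receptor, stood at -0.17 in estradiol benzoate animal 2, above -0.41 to -0.38 in the others. In testosterone animals, Ccl17 reached -3.07 in animal 4 (others -4.11 to -3.98), Tnfrsf1a 1.99 in animal 6 (others 1.65 to 1.69), and Tnfaip8 was down at 1.35 in animal 8 (others 1.78 to 1.83). In vehicle animals, Ccl20 stood at -4.60 in animal 8 (others -5.50 to -5.35) and Il1b at -1.81 in the same animal (others -2.87 to -2.71). Cxcl1 stood at -0.81 in vehicle animal 5 (others -1.51 to -1.40), which is the animal with the highest hepatocyte marker sum, and Ccl5 at -2.15 in vehicle animal 3 (others -1.87 to -1.83). The part of hepatocyte material in the Cxcl1 value was not tested.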

How the results depend on the processing

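No member was called in any comparison as reported or when any single animal was left out, and no member called under any alternative changed sign. With all 24 arrays and the animal as random block, 1 member (Ccr3) was called for estradiol benzoate against vehicle, beside 2.21% of all probes, while 5 instead of 12 members were at an unadjusted p under 0.05 there and 6 instead of 12 over the 3 groups. Without the probes below the 25th percentile of signal, which leaves 44 members, these counts were 5, 6 (testosterone against vehicle), 1 (estradiol benzoate against testosterone) and 5 (3 groups). Of all remaining probes, 14.2% and 13.7% were below 0.05 in the comparisons of estradiol benzoate and testosterone with vehicle. With a value required on all 24 arrays, 1 of 46 members was below 0.05 for estradiol benzoate against testosterone. AB arrays alone gave 6 for testosterone against vehicle and 5 for estradiol benzoate against testosterone, and fitting only the 2 groups compared gave 5 for the last. The replicate block by animal number gave 9 for testosterone against vehicle, against 14, with 0 members called. It lowered the testosterone difference of the dimmer Il1rap probe to 0.13, against 0.39 as reported, and of Tnfrsf8 to 0.24, against 0.37. The brighter Il1rap probe stayed between 0.18 and 0.39 over all alternatives, against 0.31 as reported. Without estradiol benzoate animal 3 and vehicle animal 5, chosen after seeing the data, the counts were 7, 9 and, over the 3 groups, 5. Of all probes, 8.52% and 11.1% were then below 0.05 in the comparisons of estradiol benzoate and testosterone with vehicle. Leaving out 1 animal at a time gave 6 to 17 for estradiol benzoate against vehicle (6 without vehicle animal 3), 10 to 19 for testosterone against vehicle, 2 to 5 for estradiol benzoate against testosterone (5 without testosterone animal 8) and 8 to 15 over the 3 groups. With 1 animal left out, the counts of all probes below 0.05 were 909 to 1644 for estradiol benzoate against vehicle (1376 as reported). They were 1002 to 1637 for testosterone against vehicle (1437) and 311 to 509 for estradiol benzoate against testosterone (422). Over the 3 groups they were 863 to 1405 (1218). Under the other alternatives, in the same order, they ran from 864 to 1634, 969 to 1530, 301 to 634 and 827 to 1547. The cause of these shifts was not tested, and the reduced sets hold fewer members or animals. Where all probes are given only as a range, a member count does not show whether members shifted more than the whole array. Calls over all probes varied more, from 0 to 226 for estradiol benzoate against vehicle (0 as reported), 0 to 151 for testosterone against vehicle (5), 0 to 40 for estradiol benzoate against testosterone (3) and 0 to 254 over the 3 groups (1). Signal was low for many members, with 31 of 75 below the 25th percentile.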
